A study of Mus musculus with 24 samples.

Results

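Cytochrome P450 genes encode heme enzymes that oxidize drugs, steroids, retinoids, bile acid precursors, vitamin D and fatty acids. They were taken from the whole-genome arrays by name, as every probe other than a control whose array gene symbol is Cyp followed by a family number, a subfamily letter and a gene number, so that Cyp51 was left out. That rule uses no measured value, and it found 102 probes for 70 genes among 41174 different probes with 27962 gene names. All 102 matched the RefSeq mouse annotation, 90 by accession and 12 by symbol. For 3 genes the annotation now gives another symbol, namely Cyp2c23 for Cyp2c44, Cyp3a41a for Cyp3a41 and Cyp4a12a for Cyp4a12, and the array's symbols are kept here.

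The cells were a line of mouse embryonic fibroblasts without Ku70 (gene Xrcc6), a protein needed to join broken DNA ends. All groups carry that deletion, and the line is a single repair-deficient model. The study asked how bisphenol A (BPA), a plastics monomer, changes the response of these cells to potassium bromate (KBrO3), an oxidizing agent. Cy3-labeled RNA of each biological replicate was read on a 1-color whole-genome array of its own, and the arrays form 2 sets that differ in scan and software version.

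The first set has 15 arrays in 5 groups of 3. These are untreated controls, which the labels place at 4 hr, cells given 20 mM KBrO3 for 1 hr and harvested 4 or 24 hr after its addition, and co-exposed cells that received 150 µM BPA before, during and after the same KBrO3 pulse and were harvested at 4 or 24 hr. The second set has 9 arrays in 3 groups of 3. These are its own untreated controls, whose labels give no time, and cells kept with 150 µM BPA alone, which the labels place at 4 or 24 hr. Those times run from the point at which KBrO3 was added to the other cells, and the methods start BPA 1 hr before it, so these cells had BPA for 1 hr longer than their labels say. No control labeled 24 hr was analysed here, so a change at 24 hr cannot be told apart from a change with time in culture.

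P450 enzymes of families 1 to 3 are best known from liver, where they clear foreign compounds and many are induced through nuclear receptors and the aryl hydrocarbon receptor (AHR). Other families act on the body's own signals in many tissues. Cyp26 enzymes break down retinoic acid, Cyp7b1 and Cyp39a1 are oxysterol 7alpha-hydroxylases, Cyp27b1 and Cyp24a1 make and destroy active vitamin D, and Cyp4 enzymes hydroxylate fatty acids.

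The probes behind the largest changes are shown first, because 2 of these genes have probes at different positions that gave different answers. Probes are 60 bases long, and the first 30 are printed 5′ to 3′. No letters are in capitals, since no motif is marked, and the positions are those of the whole probe on mouse build mm7 in the array files, which do not state exon or intron.
Cyp26a1, chr19:37401759-37401818, plus strand: atcttcactaacaaggaggaatttaatccc
Cyp26b1, chr6:84601274-84601333, minus strand: gttcgtgtgtctcgttgtggtagcattaat
Cyp1b1, brighter probe, chr17:78002920-78002979, minus strand: actacattaagcagatagatcaccatgtat
Cyp1b1, dimmer probe, chr17:77997291-77997350, minus strand: cccctggtggaaaacagactcaggtcaaaa
Cyp2d22, brightest probe, chr15:82459884-82459943, minus strand: gttgctttccgattccagcatgcctgtaat
Cyp2d22, second probe, chr15:82458342-82458401, minus strand: tctgtgtctaccatgcaccactttggcctg
Cyp2d22, most downstream probe, chr15:82455652-82455711, minus strand: ttccctcaaattgataatgtttatacatag
Cyp2f2, chr7:24052410-24052469, plus strand: aatgacgtgacaaaggtgaaatacccgtct
Cyp7b1, chr3:17798088-17798147, minus strand: ttggttgagatcaatccagttggttttggg
Cyp2c44, chr19:43898918-43898977, minus strand: ccacacacattttcctattctcacgtaaaa
The dimmer Cyp1b1 probe lies 5629 bases downstream of the brighter one in the gene's direction. The second Cyp2d22 probe lies 1542 bases and the most downstream probe 4232 bases downstream of the brightest.

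Stretches of the promoters of a retinoic acid hydroxylase and of the AHR-linked genes are also shown, because retinoic acid receptors and AHR are known to act on these genes. The windows run from 250 bases before to 50 bases after the start site in RefSeq on GRCm38.p6, and 53 of the 70 genes have such an entry. Letters in capitals mark the motif, which was searched on both strands.
Cyp26a1, chr19:37697770-37697799, plus strand: taaagaTGAACTTTGGGTGAACTaatttgt
Cyp1b1, chr17:79715120-79715149, minus strand: cgtcccgcccctCACGCcccaccccctaag
Cyp1a1, chr9:57697547-57697576, plus strand: tcagataaggagGCGTGgccaacagacaca
The retinoic acid response element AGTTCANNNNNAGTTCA occurred in 8 of 32851 promoter windows (0.0244%), and Cyp26a1 was the member gene with a match, on the strand opposite to the gene with its first base at position −32, the start site being 0. The Cyp26b1 window held neither this motif nor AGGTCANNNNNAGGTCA, which was in 3 windows (0.00913%) and in no member's. The AHR core motif GCGTG was found in 10639 windows (32.4%) and in those of 11 member genes, including Cyp1b1 at position −76 and Cyp1a1 at position −54. These matches describe the letters of the window and were not tested for use in these cells. Sites outside the windows were not searched, so the matches are not shown to be the established ones.

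Signals are given as log2 of the spot's processed signal minus the 75th percentile of its array, so a level of 0 equals that percentile, and levels of different genes are not compared. Brightness serves only to tell the probes of a gene apart and to choose 1 of them for it. Testing within a set was limited to probes that the scanner software found well above background on all 3 arrays of at least 1 group. A probe below background in the controls thus entered only through a treated group where it is high, which favours rises among such probes. By that rule the first set had 52 testable P450 probes (43 genes) and the second had 66 (53 genes). The other 17 genes were not measured, and they include Cyp1a2, Cyp2e1, Cyp2a5, Cyp2a12, 4 Cyp2c genes (Cyp2c38, Cyp2c39, Cyp2c40 and Cyp2c54), 3 Cyp3a genes (Cyp3a16, Cyp3a25 and Cyp3a44), Cyp8b1, Cyp2r1, Cyp11a1, Cyp11b2, Cyp2j5 and Cyp4f15. No probe was saturated, 29 probes of 25 genes were above background on all 24 arrays, and 20 probes on none. A probe counted as called at a Benjamini-Hochberg adjusted p below 0.05 in limma, over all probes tested in its set, with a fold change beyond 1.5.

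Between 57.7% and 68.1% of spots on the arrays of the first set were well above background, and between 76.4% and 79.4% on those of the second. Replicates varied less in the first set, with a median residual SD of 0.107 over all probes tested and 0.300 over the P450 probes, than in the second, with 0.340 and 0.374. Arrays share slides, 5 in each set, and the residuals of slide mates correlated at 0.634 (first set) and 0.115 (second set). The KBrO3 4 hr arrays share a slide with control replicate 3, and KBrO3 24 hr replicate 1 shares a slide with the co-exposed 4 hr arrays. No slide holds a control of the first set together with a co-exposed or a KBrO3 24 hr array. In those comparisons slide and treatment cannot be told apart, and the main fit has no slide term. That KBrO3 24 hr array lay more than 1 log2 unit above both others of its group for 14 of the 52 P450 probes tested (26.9%), against 5.76% of all probes, and more than 1 below both for 1 (1.92%), against 0.135%. On all 14 it was nearer the mean of the co-exposed 4 hr arrays than that of its own group's other arrays. The same held for 1527 of the 1574 probes of the whole array that lay so far above. The 14 are probes of Cyp2b13, Cyp2b19, Cyp2c29, Cyp2c37 (both probes), Cyp2c65, Cyp2c66, Cyp2c70, Cyp2d10, Cyp4x1, Cyp21a1, Cyp27a1 and Cyp27b1 (both probes). Cyp2c37 was at −3.56 on that array by 1 of its probes, against −6.79 and −6.51 on the others, which were not above background, and Cyp27b1 at −2.53 against −3.78 and −4.06. Without that array 2 P450 probes were higher and 28 lower after KBrO3 at 24 hr, against 13.8% and 21.5% of all probes. Within-slide differences, with no test, are given beside the main changes where a slide holds arrays of both groups, and the slide's part in the other values was not tested.

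The fibroblast label was checked against marker genes. All 8 fibroblast markers were tested, with Col1a1 at 7.70 ± 0.10 (SD, n = 3) and Dcn at 8.29 ± 0.07 in the controls of the first set, and none of the 4 hepatocyte markers on the array was tested in that set. Of 4 epithelial markers 2 were tested there, with the keratin Krt18 above background on all 3 controls at −4.42 ± 0.29, while the cadherin Cdh1 was above it on none of the 15 arrays of the first set but on all 3 controls of the second. Of 4 leukocyte markers 2 were tested in the first set, the lysosomal protein Cd68 and the T cell receptor subunit Cd3e, both above background in all 8 groups, and the pan-leukocyte antigen Ptprc was above it on none of the 24 arrays. At 24 hr, 7 of the 8 fibroblast markers were lower after KBrO3 (median −1.41) and 7 after co-exposure (median −1.89), while neither epithelial marker was called. Cd68 was higher by 1.16 and 1.87 at 24 hr, as it was at 4 hr by 2.25 and 1.66. Cd3e went the other way at 24 hr, with a difference of −0.38 after KBrO3 that was not called and a fall of −0.67 after co-exposure. At 4 hr 1 fibroblast marker was lower after KBrO3 and 2 after co-exposure, with the growth factor receptor Pdgfrb at 4.80 in the controls and at 3.20 and 2.93, the keratin Krt8 was called higher in both groups (at least 1.25-fold and at least 2.11-fold, with 1 and 3 of 3 arrays above background) and Krt18 was at least 1.97-fold lower after co-exposure. These markers moved with the P450 changes at both times, and their part in them was not tested. In such bulk RNA, fewer cells of a type and less RNA per cell cannot be told apart.

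At 4 hr after KBrO3 alone the retinoic acid hydroxylases were up-regulated, and the brightest of the 3 Cyp2d22 probes fell to background while the second did not fall. Of the 52 P450 probes tested, 11 were higher (21.2%) and 7 lower (13.5%), against 23.0% higher and 22.5% lower over all 27310 probes tested. The median difference was 0.20 over the P450 probes and 0.06 over all probes. Co-exposure at 4 hr gave 15 higher and 12 lower probes, against 29.9% and 24.4% over all probes, with medians of −0.10 and 0.08. These splits depend on the processing. For co-exposure they were 13 higher and 17 lower with scaling to array medians (25.8% and 29.2% over all probes), 7 and 12 with slide as a random block (24.3% and 23.4%), and 10 and 9 of the 29 P450 probes above background on every array (28.4% and 24.8%). For KBrO3 the last test gave 7 and 5 of 29 (24.3% and 22.1%). The normexp correction subtracts each spot's local background and then models what remains of it from the distribution of signals on the array. With it 2 were higher and 7 lower after KBrO3 (14.8% and 24.4%) and 2 higher and 17 lower after co-exposure (15.3% and 26.7%).

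At 24 hr the calls among P450 probes were mostly lower. KBrO3 alone gave 3 higher and 21 lower of 52, a share of 40.4% lower against 19.1% over all probes and 14.1% higher, and co-exposure gave 5 higher and 24 lower, 46.2% lower against 23.5% lower and 15.9% higher over all probes. The medians were −0.55 and −0.72 over the P450 probes and −0.02 and −0.07 over all probes. Scaling to array medians moved the median of all probes by 0.15 and 0.32, and the splits were then 4 higher and 18 lower for KBrO3 and 9 higher and 21 lower for co-exposure, against 20.99% and 14.7%, and 29.996% and 14.7%, over all probes. With a test limited to probes above background on every array, 29 P450 probes remained. Of these, 1 was higher and 12 were lower after KBrO3, against 14.7% higher and 17.4% lower over all probes so limited, and 4 were higher and 10 lower after co-exposure, against 17.4% and 19.9%. With normexp 1 was higher and 40 lower after KBrO3, against 9.53% and 43.2%, and 0 higher and 42 lower after co-exposure, against 11.96% and 43.1%. The comparisons of both treatments with the controls share those 3 control arrays.

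**Figure D1:**
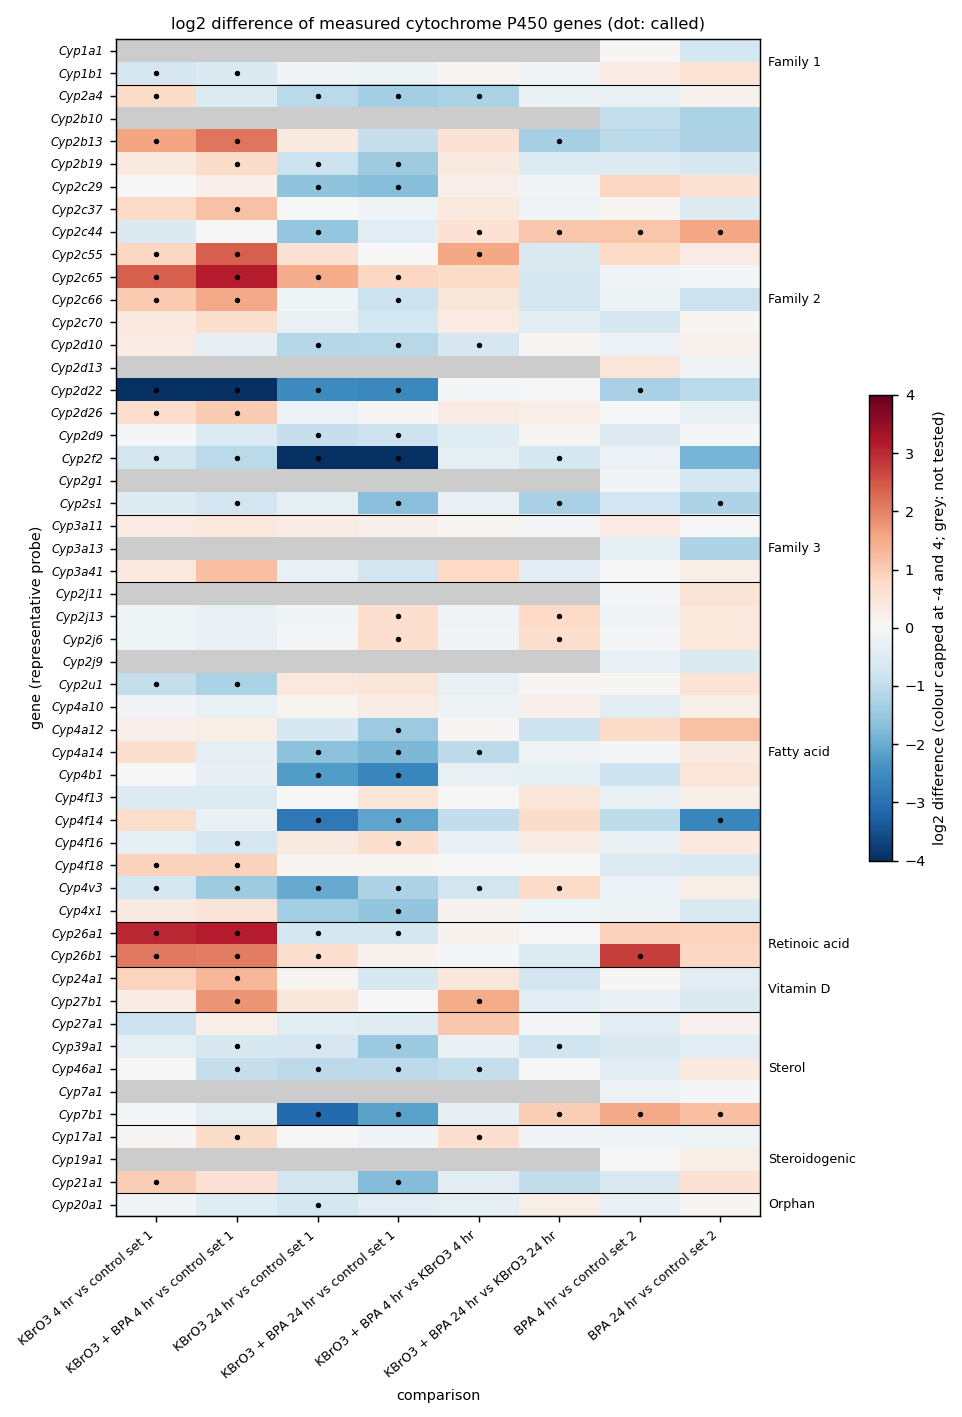
Log2 differences of the measured P450 genes (rows, representative probe, grouped by role) in the 8 comparisons (columns), with red for higher and blue for lower in the first group named, colour capped at 4 in either direction, a dot where the probe was called and grey where it was not tested. Lower calls gather in the 24 hr columns of KBrO3 and co-exposure. There 17 and 20 of 43 genes were lower, against 19.1% and 23.5% of all probes. Few dots stand in the columns of BPA alone, where 1.39% to 2.83% of all probes were called in a given direction.

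After KBrO3 alone at 4 hr the retinoic acid hydroxylases gave the largest rises among genes measured on all arrays of both groups. Cyp26a1 was at −0.58, −0.56 and −0.51 in the controls, at 2.45, 2.46 and 2.46 after KBrO3 at 4 hr and at 2.57, 2.59 and 2.60 after co-exposure at 4 hr. At 24 hr it lay below the controls, at −1.34, −1.22 and −1.20 after KBrO3 and at −1.24, −1.21 and −1.35 after co-exposure. No control array overlapped any treated group of the first set. The difference at 4 hr was 3.01 ± 0.05 (SE) after KBrO3, an 8.03-fold rise (limma adjusted p = 1.78e-13), and 3.13 ± 0.05 after co-exposure, an 8.78-fold rise. The differences at 24 hr were −0.70 and −0.72, and from 4 to 24 hr Cyp26a1 changed by −3.71 after KBrO3 and −3.85 after co-exposure. On the slide that holds control replicate 3 and the KBrO3 4 hr arrays the difference was 2.97.

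Cyp26b1, the other retinoic acid hydroxylase measured, moved with less reversal. Its controls were at −0.10, 0.03 and −0.12, the KBrO3 4 hr arrays at 2.05, 2.06 and 2.06 and the co-exposed 4 hr arrays at 1.98, 2.00 and 1.95. After KBrO3 at 24 hr it stayed above the controls at 0.65, 0.59 and 0.63, and after co-exposure at 24 hr it was at 0.07, 0.07 and 0.05. The rises at 4 hr were 2.12 ± 0.04 (4.34-fold, limma adjusted p = 8.17e-13) and 2.04 ± 0.04 (4.10-fold), and that at 24 hr after KBrO3 was 0.68 ± 0.04. Within the slide shared with a control the KBrO3 4 hr difference was 2.18.

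BPA alone also raised Cyp26b1. The controls of the second set were at 0.24, −0.97 and −0.57 and the BPA 4 hr arrays at 2.20, 2.55 and 2.29, so the groups did not overlap. The difference was 2.78 ± 0.32, a 6.86-fold rise (limma adjusted p = 0.00242), and 2.01 within the slide that holds both groups. At 24 hr the arrays were at 0.77, 0.15 and 0.23, which overlaps the controls, and the difference was 0.82 ± 0.32 (adjusted p = 0.211). The change from BPA at 4 hr to BPA at 24 hr was −1.96 (adjusted p = 0.0116) and did not pass without BPA 4 hr replicate 2 (−1.86) or replicate 3 (−1.99). Cyp26a1 was at −1.35 to −0.85 in those controls, at 0.03, −0.47 and −0.01 after BPA at 4 hr and at −0.42, 0.11 and −0.26 at 24 hr. All 6 BPA arrays lay above the controls, and within slides they differed by 1.36 at 4 hr and by 0.43 and 1.11 at 24 hr. Neither difference passed the threshold (0.91 ± 0.24, adjusted p = 0.0669, and 0.88 ± 0.24, adjusted p = 0.0841).

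**Figure D2:**
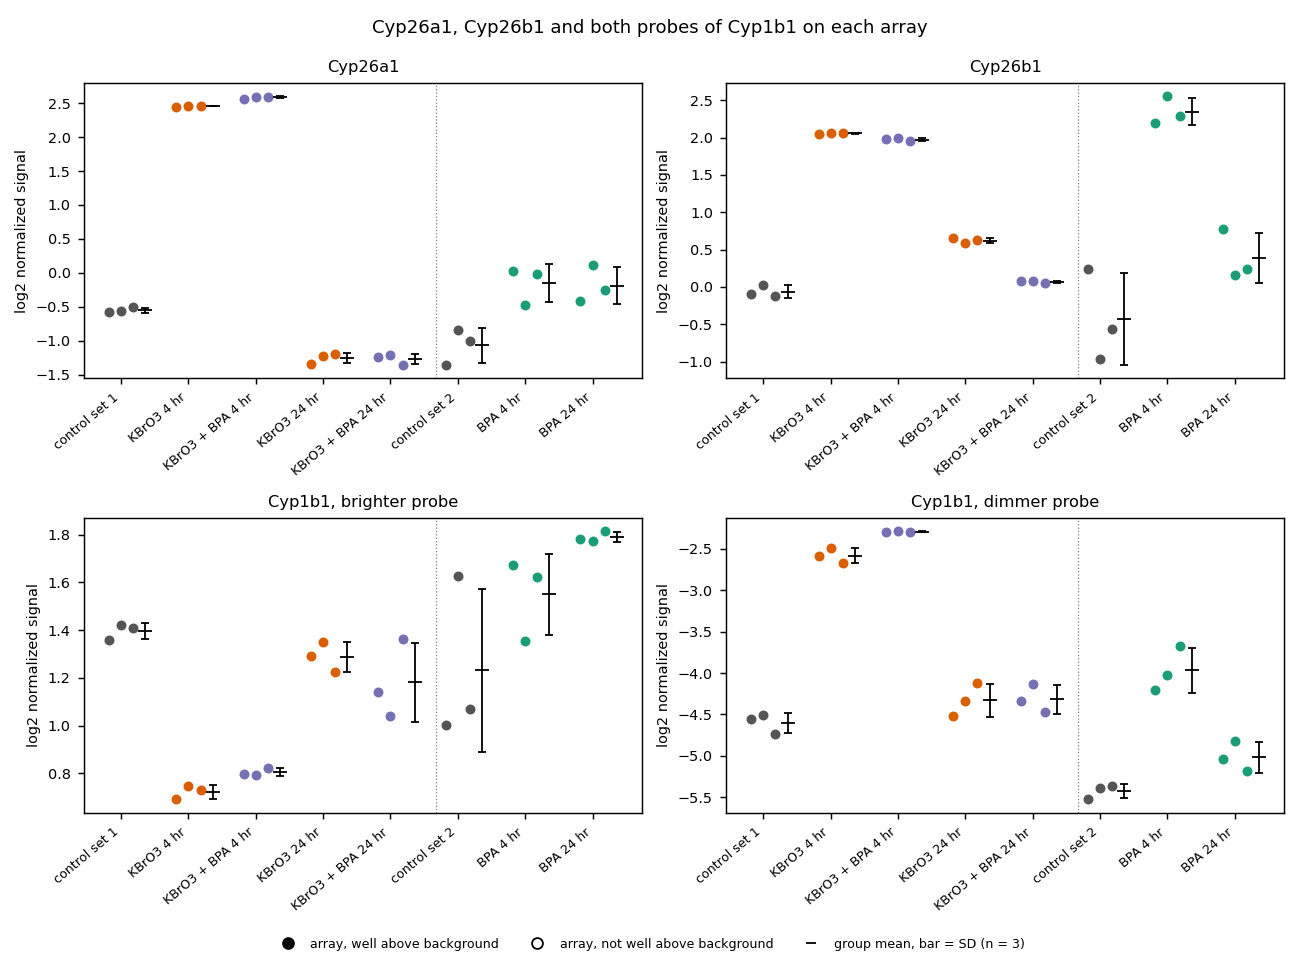
Log2 normalized signal of Cyp26a1, Cyp26b1 and both Cyp1b1 probes on each array (points, filled where well above background), with the group mean and SD (n = 3) beside them and the second set right of the dotted line. Cyp26a1 and Cyp26b1 are high in both 4 hr groups of the first set, Cyp26b1 also with BPA at 4 hr, and the 2 Cyp1b1 probes move in opposite directions at 4 hr in the first set.

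The 2 probes of Cyp1b1, a family 1 enzyme of steroid and hydrocarbon metabolism, disagreed in direction at 4 hr in the first set. The brighter probe was at 1.36, 1.42 and 1.41 in the controls, at 0.69, 0.75 and 0.73 after KBrO3 at 4 hr and at 0.80, 0.79 and 0.82 after co-exposure at 4 hr. The dimmer probe was at −4.55, −4.51 and −4.74 in the controls, at −2.59, −2.49 and −2.67 after KBrO3 and at −2.30, −2.28 and −2.30 after co-exposure. Thus the brighter probe was down-regulated by 0.67 on the log2 scale after KBrO3 (adjusted p = 1.57e-06) and by 0.59 after co-exposure, and the dimmer one was up-regulated by 2.02 (4.06-fold) and 2.31. Normexp left 2 P450 probes higher in each comparison (14.8% and 15.3% of all probes), instead of 11 and 15. Whether the dimmer probe was among them is not given here. At 24 hr neither probe was called in the first set. With BPA alone at 4 hr the dimmer probe was higher again, by 1.46 ± 0.20 (adjusted p = 0.00593), and the brighter probe was not called. The dimmer probe was designed on a cDNA clone and not on the gene's reference transcript, and which transcript it detects was not tested.

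Of the other family 1 genes, Cyp1a1 was tested in the second set alone, where its controls were at −5.08 to −4.36 and it was not called, and Cyp1a2 was not measured. Tiparp and Ahrr, which are known AHR targets, moved apart at 4 hr. Tiparp was up-regulated by 2.37 after KBrO3 and 2.70 after co-exposure, and Ahrr was down-regulated by 2.44 and 3.39. The receptor Ahr was higher by 0.78 after KBrO3 at 4 hr and its partner Arnt lower by 1.42 on its brightest probe, while the 3 other Arnt probes differed by 0.0046, 0.025 and −0.76.

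The largest fall of any P450 gene was that of Cyp2f2, an enzyme known for activating naphthalene in lung. Its controls were at 2.94, 2.99 and 2.92, the KBrO3 4 hr arrays at 2.21, 2.21 and 2.20 and the co-exposed 4 hr arrays at 1.85, 1.81 and 1.93. At 24 hr the KBrO3 arrays were at −3.06, −3.05 and −2.72 and the co-exposed arrays at −3.53, −3.72 and −3.64, all still well above background. No treated array reached a control, and the 24 hr groups lay more than 5 log2 units below it. The differences were −0.74 ± 0.08 and −1.09 ± 0.08 at 4 hr and −5.89 ± 0.08 and −6.58 ± 0.08 at 24 hr, which are 59.5-fold and 95.8-fold falls (limma adjusted p = 1.21e-13 and 3.28e-14). On the slide shared with a control the KBrO3 4 hr difference was −0.72. With normexp it was −0.49 and was no longer called.

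In the second set the Cyp2f2 controls were far lower than in the first, at 0.42, 0.13 and −0.51. BPA alone at 4 hr left it at −0.59, 0.12 and −0.17. At 24 hr the arrays were at −2.53, −2.27 and −0.73, below the controls on all 3, and the difference of −1.85 ± 0.46 did not pass the threshold (adjusted p = 0.0662). Without BPA 24 hr replicate 3 it was −2.41 and passed, and within the slides that hold both groups it was −2.66 and −1.75. Cyp7b1 likewise stood at 2.77 to 2.93 in the first controls and at −0.42 to −0.19 in the second. The sets differ in scan, software and labeled time, which cannot be told apart here, so no difference between the sets was tested.

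Cyp2d22, a broad-substrate family 2 enzyme, has 3 probes that differed at 4 hr. The brightest, which gave the largest fall of any P450 probe at that time, and the most downstream one were designed on cDNA clones, and the second on the gene's reference transcript. Which transcripts the clone probes detect was not tested. The brightest probe was at −2.18, −2.16 and −2.12 in the controls, and it was not well above background on any of the 6 treated arrays at 4 hr, KBrO3 or co-exposed. These falls are at least 7.56-fold and at least 9.47-fold, counted against the lowest signal measured above background on each array (limma adjusted p = 1.87e-11 and 1.26e-11). At 24 hr the signal was back above background at −4.89, −4.56 and −4.70 after KBrO3 and −4.66, −4.74 and −4.75 after co-exposure. Both groups were still below the controls by 2.56 ± 0.14 (5.90-fold for KBrO3). From 4 to 24 hr it rose at least 1.28-fold after KBrO3 and at least 1.60-fold after co-exposure. With normexp the change after KBrO3 turned slightly negative.

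The reference transcript probe did not follow the brightest after KBrO3 at 4 hr. This second probe was at −4.66, −4.60 and −4.25 in the controls and at −4.26, −4.45 and −4.22 after KBrO3 at 4 hr, where it was not called, and it was lower by 0.97 on the log2 scale after co-exposure, where 1 of 3 arrays was above background. The most downstream probe was not above background after KBrO3 at 4 hr, a fall of at least 1.80-fold, and was measured again after co-exposure at −3.93, −4.85 and −4.51. At 24 hr all 3 probes were called lower in both groups, the second and the most downstream one with at most 1 of 3 arrays above background. With BPA alone at 4 hr the differences were −1.29 (adjusted p = 0.0288), −1.28 (adjusted p = 0.0441) and −1.33 (adjusted p = 0.188) for the brightest, second and most downstream probe. The call of the brightest probe was lost when any 1 of 5 arrays was left out, namely control replicate 1 or 2 or any BPA 4 hr array, with values of −1.13 to −1.40.

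**Figure D3:**
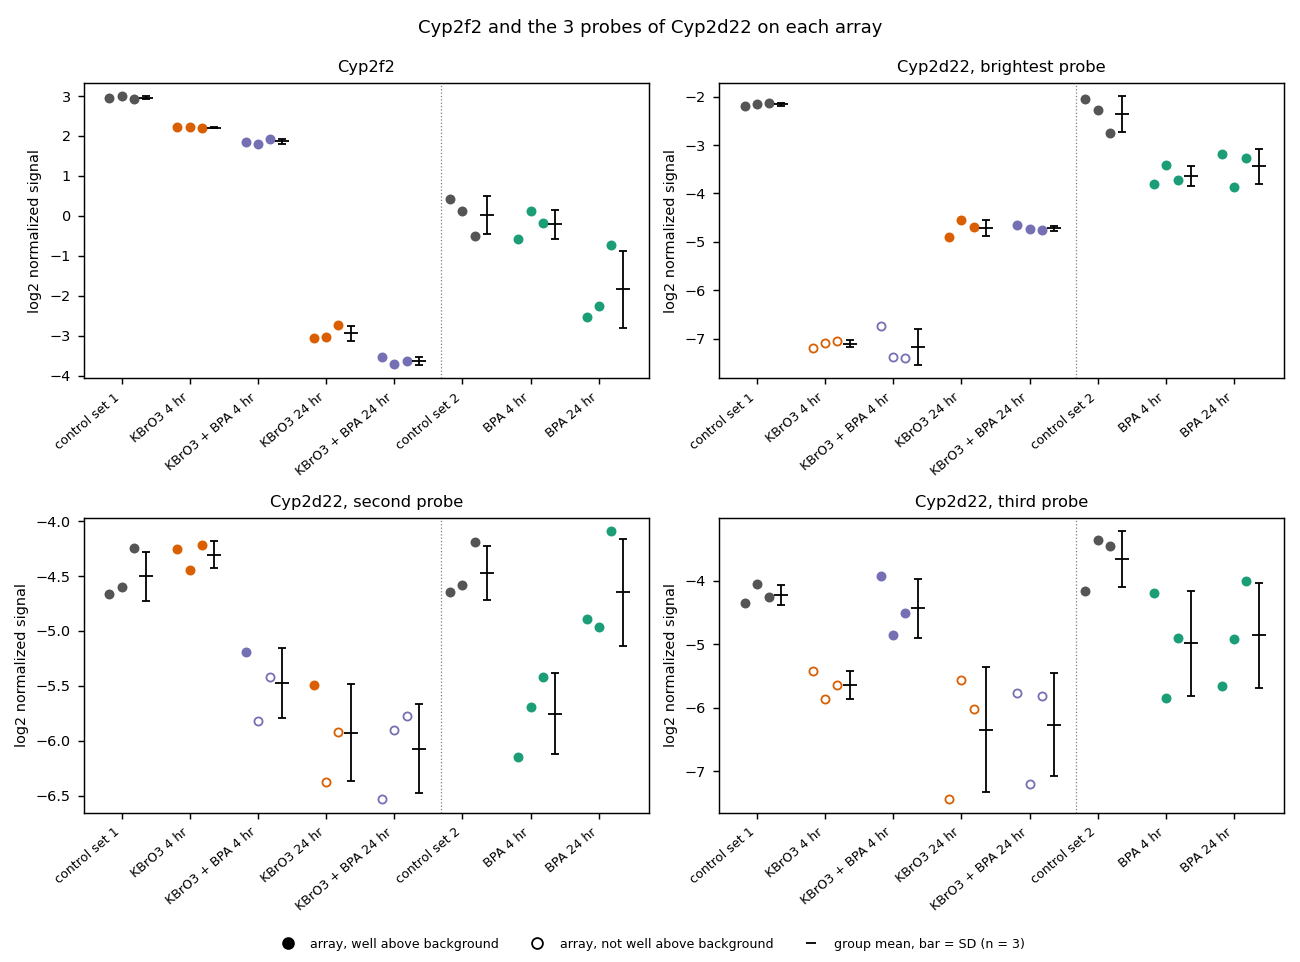
Log2 normalized signal of Cyp2f2 and of the 3 Cyp2d22 probes on each array (open points are not well above background), with group mean and SD (n = 3) and the second set right of the dotted line. Cyp2f2 falls from near 3 in the controls to below −2.7 in both 24 hr groups of the first set, and the brightest Cyp2d22 probe has no array above background in either 4 hr group.

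Among the Cyp2c genes, which epoxidize and hydroxylate fatty acids and drugs, several rose at 4 hr. Cyp2c65 was not above background in the controls. It was at −3.86, −3.82 and −3.62 after KBrO3 at 4 hr, at least 3.21-fold higher, and at −3.19, −2.87 and −3.01 after co-exposure, at least 5.37-fold higher. Cyp2c55 was at −4.46 to −3.65 in the controls, at −3.16, −3.26 and −3.18 after KBrO3 and at −1.58, −1.61 and −1.76 after co-exposure. All 6 arrays lay above the controls, and the co-exposed arrays formed the higher group. Cyp2c55 rose by 0.84 ± 0.24 (adjusted p = 0.00751), by 0.45 within the slide shared with a control, and by 2.39 ± 0.24 (adjusted p = 1.46e-06). Cyp2c66 rose by 1.04 and 1.51, and Cyp2c37 by 1.18 after co-exposure.

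These rises are of dim probes and depend on how background is handled. With normexp correction the 4 hr differences of Cyp2c65 were −0.50 for KBrO3 and −0.10 for co-exposure, without a call, and that of Cyp2c55 was 0.48 after co-exposure, also without a call. Cyp2b13 was at −5.59 on the 1 control array above background, at −5.11, −4.76 and −4.49 after KBrO3 at 4 hr and at −4.14, −4.22 and −4.28 after co-exposure. With 2 of 3 controls not above background its fitted differences, 1.57 and 2.14, are no measured sizes, and normexp turned them to −0.91 and −0.70. At 24 hr Cyp2c65 was at least 1.71-fold above the controls after KBrO3, a mean raised by replicate 1, which lay more than 1 log2 unit above both others. After co-exposure 1 of 3 arrays was above background and the rise, at least 1.09-fold, was lost without control replicate 1 (0.63) or 3 (0.71) or any of the 3 co-exposed arrays (0.73 to 0.90). With normexp both 24 hr differences were negative, −1.20 and −1.30.

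Cyp2c44, an arachidonic acid epoxygenase, went down with KBrO3 and up with BPA. It was at −3.31, −3.09 and −3.30 in the controls, at −3.72, −3.83 and −3.88 after KBrO3 at 4 hr and at −4.64, −4.73 and −4.96 at 24 hr. In co-exposed cells it was at −3.26, −3.25 and −3.15 at 4 hr and at −3.80, −3.69 and −3.58 at 24 hr. The fall after KBrO3 at 24 hr was −1.54 ± 0.09 (adjusted p = 2.16e-08), and after co-exposure at 24 hr it was −0.45 ± 0.09, which is short of the 1.5-fold limit. In the second set the controls were at −3.15, −3.26 and −3.46, and BPA alone gave −2.22, −1.93 and −2.38 at 4 hr and −1.46, −1.83 and −1.98 at 24 hr. No BPA array overlapped a control, and the differences were 1.11 ± 0.21 (adjusted p = 0.0236) and 1.53 ± 0.21 (adjusted p = 0.00802). Within slides they were 0.85 at 4 hr and 1.80 and 1.62 at 24 hr. At 4 hr the call was lost without control replicate 2 (1.13) or 3 (1.03) or any BPA array (0.99 to 1.21).

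Of the 27 family 2 genes on the array outside the Cyp2j, Cyp2r and Cyp2u groups, 16 were tested in the first set by their representative probe. After KBrO3, 6 were higher and 2 lower at 4 hr, and 1 was higher and 8 lower at 24 hr, where all probes gave 23.0% higher and 22.5% lower at 4 hr and 14.1% and 19.1% at 24 hr. After co-exposure the counts were 7 and 3 at 4 hr, against 29.9% and 24.4%, and 1 and 9 at 24 hr, against 15.9% and 23.5%. Cyp2d9 was lower by 0.92 after KBrO3 at 24 hr and by 0.82 after co-exposure, and Cyp2d10 by 1.15 and 1.12 with 2 and 1 of 3 arrays above background. Cyp2a4 was lower by 1.09 and at least 2.29-fold in these groups, and it was above background on 11 of the 15 arrays of the first set. Cyp2a4, a testosterone 15alpha-hydroxylase, was at −4.59, −4.08 and −3.49 in the controls and at −3.39, −3.35 and −3.21 after KBrO3 at 4 hr, higher by 0.74 on all 3 arrays, and by 0.17 against the control array on the same slide. After co-exposure at 4 hr it was at −4.87, −4.68 and −4.23. Cyp2a5, a close paralog of Cyp2a4, was not measured, and whether the measured Cyp2a4 probe also takes up its RNA was not tested.

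Cyp2s1, an extrahepatic enzyme, was at −3.80, −3.67 and −3.52 in the controls, at −4.22 to −3.89 after KBrO3 at either time and at −4.57, −4.34 and −4.42 after co-exposure at 4 hr. All 9 of these treated arrays lay below the controls, and the call passed in co-exposed cells, which were lower by 0.78 on the log2 scale (adjusted p = 3.03e-05). After co-exposure at 24 hr Cyp2s1 was not above background, at least 3.01-fold below the controls.

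Family 3, the main drug-metabolizing enzymes of liver, gave no call in any of the 8 comparisons, in which 1.39% to 29.9% of all probes were called in a given direction, and so few tested genes leave little to compare. In the first set 2 of its 6 genes were tested, Cyp3a11 and Cyp3a41, and 1 of 2 reached an unadjusted p below 0.05 after co-exposure at 4 hr. That gene was Cyp3a41, with a difference of 1.20 ± 0.54 (limma adjusted p = 0.0584), and Cyp3a11 differed from the controls by 0.22 to 0.43 in the 4 treated groups. In the second set 1 of 3 tested genes reached an unadjusted p below 0.05 with BPA at 24 hr, and 0 did in the other 6 comparisons.

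Of the 4 sterol enzymes tested in the first set, 3 were lower and none higher in each 24 hr group, against 19.1% lower over all probes after KBrO3 and 23.5% after co-exposure. Cyp27a1, the sterol 27-hydroxylase, was the member not called, with 1 of 3 control arrays above background. Cyp7b1 was at 2.93, 2.93 and 2.77 in the controls and at 2.86, 2.86 and 2.79 after KBrO3 at 4 hr, which overlap. At 24 hr it was at −0.28, −0.27 and −0.18 after KBrO3 and at 0.75, 0.89 and 0.60 after co-exposure. The 4 hr difference after KBrO3 was −0.04 ± 0.07, and the falls at 24 hr were −3.12 ± 0.07 (8.69-fold, adjusted p = 5.20e-12) and −2.13 ± 0.07 (4.37-fold, adjusted p = 6.15e-11). With BPA alone it moved the other way, from −0.42, −0.19 and −0.38 in the controls to 1.26, 1.19 and 1.05 at 4 hr and 1.01, 0.81 and 0.78 at 24 hr. The groups did not overlap, and the rises were 2.83-fold at 4 hr (adjusted p = 0.00272) and 2.29-fold at 24 hr (adjusted p = 0.00957), with an SE of 0.17 on the log2 scale.

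Cyp39a1 lay below the controls on all 12 treated arrays of the first set by its representative probe, its level going from 1.65, 1.63 and 1.63 in the controls to 1.30, 1.25 and 1.30 after KBrO3 at 4 hr and 1.03, 0.95 and 1.04 after co-exposure. At 24 hr it was at 0.96, 1.01 and 0.91 after KBrO3 and 0.13, −0.01 and 0.36 after co-exposure. The 24 hr differences were −0.68 ± 0.07 and −1.48 ± 0.07, and those of its second probe were −1.04 and −1.77. After KBrO3 at 4 hr the second probe passed with −0.70, while the representative probe was below the fold limit. Cyp46a1, the cholesterol 24-hydroxylase known from neurons, was at −1.84, −1.89 and −1.52 in the controls and differed by 0.01 ± 0.09 after KBrO3 at 4 hr (adjusted p = 0.921). In the other 3 treated groups its 9 arrays lay between −2.85 and −2.56, and the differences were −1.04 after KBrO3 at 24 hr, −0.93 after co-exposure at 4 hr and −1.03 at 24 hr.

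**Figure D4:**
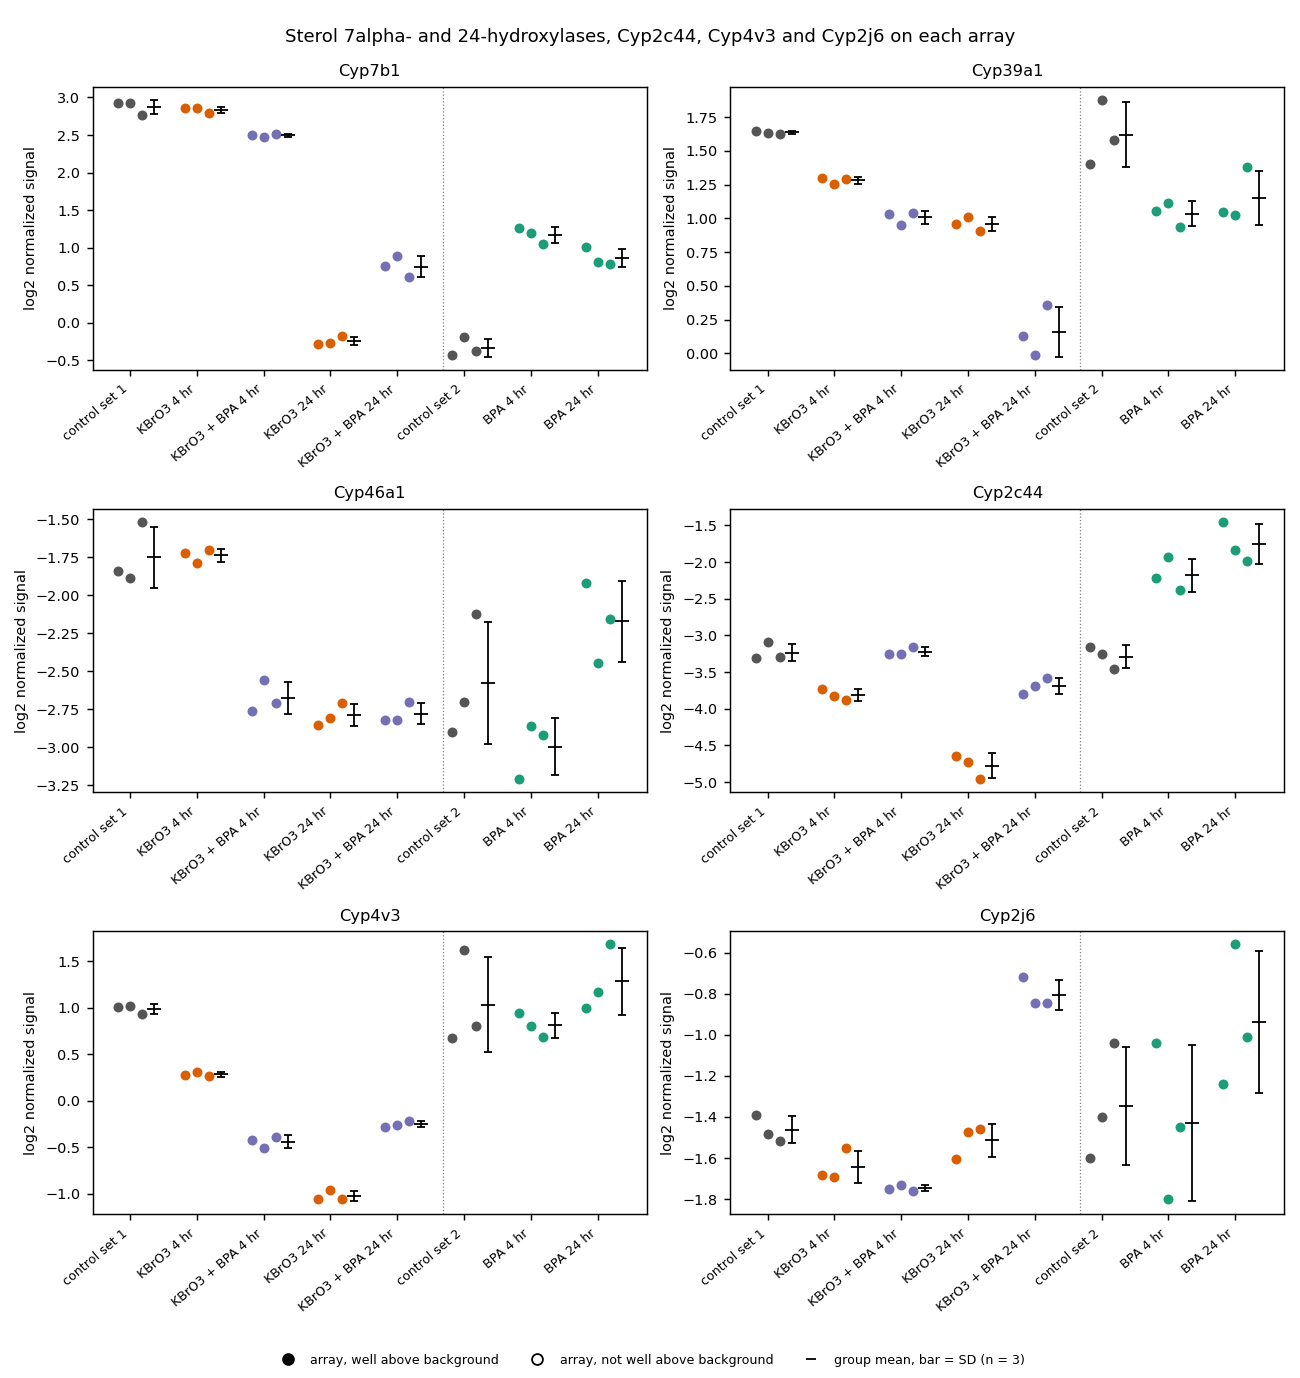
Log2 normalized signal of Cyp7b1, Cyp39a1, Cyp46a1, Cyp2c44, Cyp4v3 and Cyp2j6 on each array, with group mean and SD (n = 3) and the second set right of the dotted line. Cyp7b1 drops from near 2.9 to −0.2 after KBrO3 at 24 hr but to 0.75 after co-exposure, and rises with BPA alone from −0.3 to 1.2 at 4 hr.

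Vitamin D enzymes were called higher with co-exposure at 4 hr, where 29.9% of all probes were higher. In that comparison 15 P450 probes were higher, 3 of them probes of vitamin D enzymes. Normexp left 2 P450 probes higher (15.3% of all probes), and slide as a random block left 7 (24.3%). Cyp27b1, the 1alpha-hydroxylase, was at −4.10, −4.01 and −3.63 in the controls and at −2.22, −2.13 and −2.11 in co-exposed cells, a rise of 1.76 ± 0.33 (adjusted p = 3.33e-04), while its KBrO3 4 hr arrays were at −3.98 to −3.18. Cyp24a1, the 24-hydroxylase, was not above background in the controls and rose at least 1.41-fold. It was above background on 4 of the 15 arrays of the first set. The test rule thus admitted it through a treated group where it is high, and its rise is no support on its own. Neither gene was called after KBrO3 alone by its representative probe. The second Cyp27b1 probe was called at least 1.06-fold higher after KBrO3 at 24 hr, with 1 of 3 arrays above background. That value rests on replicate 1, which shares a slide with the co-exposed 4 hr arrays. The probe was at −4.38 there and at −5.52 and −6.21 on the others, not above background. Of the steroidogenic enzymes, Cyp17a1 was at −1.77 to −1.29 in the controls and at −0.88 to −0.70 after co-exposure at 4 hr, a rise of 0.72 ± 0.19 (adjusted p = 0.00424). Cyp21a1 was not above background in the controls and at least 1.92-fold higher after KBrO3 at 4 hr. It was above background on 6 of the 15 arrays of the first set, so it too entered through a treated group where it is high.

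The fatty acid group of Cyp4, Cyp2j and Cyp2u1 genes had 13 of 17 members tested in the first set. After KBrO3, 1 was higher and 2 lower at 4 hr and 4 were lower at 24 hr, and after co-exposure 1 was higher and 3 lower at 4 hr and 3 were higher and 6 lower at 24 hr. Over all probes 22.5% and 19.1% were lower after KBrO3 at 4 and 24 hr and 24.4% and 23.5% after co-exposure, and the higher shares were 23.0%, 14.1%, 29.9% and 15.9% in the same order. Cyp4v3, an omega-hydroxylase of medium-chain fatty acids, was at 1.01, 1.02 and 0.93 in the controls, at 0.28, 0.31 and 0.26 after KBrO3 at 4 hr and at −1.06, −0.96 and −1.06 at 24 hr. After co-exposure it was at −0.42, −0.51 and −0.39 at 4 hr and at −0.28, −0.26 and −0.21 at 24 hr. These falls were −0.70 and −2.01 after KBrO3 and −1.42 and −1.24 after co-exposure, each with an SE of 0.05. Cyp4v3 thus lay below the controls on all 12 treated arrays, further at 4 hr in co-exposed cells and further at 24 hr after KBrO3 alone.

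Cyp4f14, a leukotriene omega-hydroxylase, was at −3.47, −3.55 and −3.84 in the controls and not above background after KBrO3 at 24 hr, at least 3.90-fold lower, and after co-exposure at 24 hr 1 of 3 arrays was above it, at −3.76. In the second set it was at −3.24, −2.96 and −3.63 in the controls and at −5.75, −6.14 and −5.74 with BPA alone at 24 hr, a difference of −2.60 ± 0.26 (adjusted p = 0.00318). Cyp4b1 was at −3.91, −3.97 and −4.02 in the controls and not above background in either 24 hr group, at least 3.07-fold lower after KBrO3 and at least 2.45-fold after co-exposure. Cyp4a14, a lauric acid omega-hydroxylase, was at −5.25, −5.18 and −4.33 in the controls and likewise not above background in either 24 hr group, at least 1.58-fold and at least 1.26-fold lower.

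Cyp2u1, a long-chain fatty acid hydroxylase, was at −3.36, −2.32 and −3.23 in the controls, at −3.95, −3.98 and −3.88 after KBrO3 at 4 hr and at −5.26, −3.73 and −3.69 after co-exposure at 4 hr. All 6 treated arrays lay below the controls, 1 control and 1 co-exposed array stood apart in their groups, and the difference after co-exposure was −1.25 ± 0.37 (adjusted p = 0.00803). After KBrO3 at 4 hr it was lower by 0.97 on the log2 scale (a difference of −0.71 within the shared slide), and the call was lost without control replicate 2 (−0.64) or without any KBrO3 4 hr array (−0.94 for the value nearest to 0). The arachidonic acid epoxygenase Cyp2j6 was at −1.39, −1.48 and −1.52 in the controls and at −0.72, −0.85 and −0.85 after co-exposure at 24 hr, while its other 9 treated arrays lay between −1.76 and −1.46. Cyp2j13 was at −3.43, −3.50 and −3.52 in the controls and at −2.72, −2.77 and −2.90 after co-exposure at 24 hr. Cyp4f16 was at −0.16, −0.34 and −0.09 in the controls, at −0.94, −0.73 and −0.94 after co-exposure at 4 hr and at 0.58, 0.56 and 0.22 at 24 hr. These 3 genes were higher after co-exposure at 24 hr by 0.66, 0.68 and 0.65, and with normexp the values were 0.20, −0.60 and 0.55 without a call. Cyp4f16 was also lost without control replicate 2 (0.58) or co-exposed 24 hr replicate 1 (0.58). Cyp20a1, whose substrate is unknown, was lower by 0.70 after KBrO3 at 24 hr and was not called elsewhere.

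BPA on top of KBrO3 was read from co-exposed against KBrO3-only cells at the same time. At 4 hr, 6 of 52 P450 probes were higher and 7 lower, against 11.9% higher and 8.21% lower over all probes, and with scaling to array medians 3 were higher and 8 lower, against 8.37% and 13.8%. At 24 hr 5 were higher and 5 lower, against 5.35% and 8.23%, and with scaling to medians 6 and 3, against 10.57% and 5.15%. At 4 hr Cyp2c55 was higher by 1.55 ± 0.24, Cyp27b1 by 1.47 ± 0.33 and Cyp17a1 by 0.68 ± 0.19, while Cyp2a4 was lower by 1.27, Cyp46a1 by 0.94 and Cyp4v3 by 0.72 on the log2 scale. No slide holds both 4 hr groups. With slide as a random block the count of called P450 probes went from 13 to 6 (1 higher and 5 lower, against 7.92% and 6.96% of all probes), and Cyp27b1, Cyp17a1, Cyp2c44 (0.59) and Cyp4a14 (−1.05, 1 of 3 co-exposed arrays above background) were not called. Cyp2c44 was also lost without KBrO3 4 hr replicate 2 (0.58) or 3 (0.56) or co-exposed 4 hr replicate 3 (0.56), and Cyp4a14 without KBrO3 4 hr replicate 3 (−0.92) or co-exposed 4 hr replicate 1 (−0.88) or 2 (−1.05).

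At 24 hr the co-exposed cells had more signal than those given KBrO3 alone for Cyp2c44 by 1.09 ± 0.09, Cyp7b1 by 0.99 ± 0.07, Cyp2j13 by 0.80 ± 0.08, Cyp4v3 by 0.77 ± 0.05 and Cyp2j6 by 0.71 ± 0.06. Cyp2s1 was at least 2.34-fold lower, Cyp39a1 lower by 0.80 and Cyp2f2 by 0.69. On the slide that holds arrays of both groups these differences were 1.10, 1.04, 0.77, 0.74 and 0.68, and those of Cyp39a1 and Cyp2f2 were −0.90 and −0.74. Cyp2f2 was short of the fold limit without KBrO3 24 hr replicate 3 (−0.58). Cyp2b13 was above background on 1 of 3 KBrO3 24 hr arrays and on no co-exposed one, so its fitted difference of −1.31 is no measured fold. It was −0.67 within the slide, and the call was lost without KBrO3 24 hr replicate 1 (−0.70) or co-exposed 24 hr replicate 1 (−1.15) or 3 (−1.29). With normexp, Cyp2c44 (0.59), Cyp2j13 (0.59) and Cyp2f2 (−0.33) were not called, and Cyp7b1, Cyp4v3 and Cyp39a1 were.

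The difference that BPA made changed between 4 and 24 hr for several genes. Of the 52 P450 probes 9 moved upward and 8 downward, against 11.0% and 16.3% over all probes. Cyp7b1 differed by −0.34 at 4 hr and 0.99 at 24 hr, a change of 1.33 ± 0.10 (limma adjusted p = 1.07e-06). Cyp4v3 went from −0.72 to 0.77, a change of 1.49 ± 0.07 (adjusted p = 3.67e-08). Cyp2c55 changed in the other direction by −2.14 ± 0.34 (adjusted p = 3.01e-04) and Cyp27b1 by −1.92 ± 0.46 (adjusted p = 0.00427). Both of them lay above 0 at 4 hr and below it at 24 hr, where neither difference was called (−0.59 ± 0.24 and −0.45 ± 0.33). For Cyp27b1 the value below 0 rests on KBrO3 24 hr replicate 1, since on the slide with the other KBrO3 24 hr arrays and co-exposed replicates 1 and 2 the difference was 0.019. Without that array the change from 4 to 24 hr was still called. With slide as a random block the Cyp27b1 change was not called, and with normexp neither that of Cyp27b1 nor that of Cyp2c55 was.

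**Figure D5:**
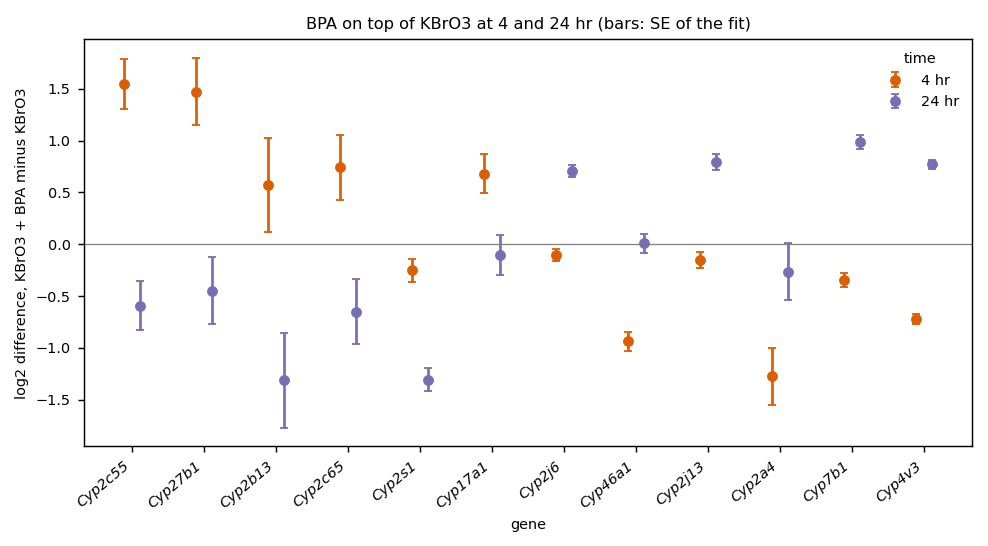
Log2 difference between co-exposed and KBrO3-only cells at 4 hr and at 24 hr for the 12 of the 23 named genes whose difference changed with time (bars, SE of the fit). Over all probes 11.0% moved upward and 16.3% downward. The 24 hr values of Cyp2a4, Cyp2b13, Cyp2s1 and Cyp2c65 rest on background and are no measured sizes. Cyp2c55 and Cyp27b1 lie above 0 at 4 hr and below it at 24 hr, for Cyp27b1 through 1 KBrO3 24 hr array, and Cyp7b1 and Cyp4v3 lie below 0 at 4 hr and above it at 24 hr.

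BPA alone altered few probes on the whole array, P450 probes included, in a set whose replicates varied more than those of the first. Of 66 tested, 4 were higher and 2 lower at 4 hr, against 2.83% and 1.41% of 31806 probes, and 2 were higher and 3 lower at 24 hr, against 1.39% and 2.02%. The medians were −0.24 and −0.03 over the P450 probes and −0.03 and −0.01 over all probes. The genes called were Cyp26b1, Cyp7b1, Cyp1b1 (dimmer probe), Cyp2c44 and Cyp2d22 at 4 hr and Cyp2c44, Cyp7b1, Cyp4f14, Cyp2s1 and Cyp2b10 at 24 hr. Cyp2b10 was called by its dimmer probe alone, which was above background on no BPA 24 hr array and at least 1.96-fold below the controls, and its brighter probe differed by −1.26 (adjusted p = 0.449). Cyp2s1 was at −2.56, −2.31 and −2.46 in the controls and at −3.50, −3.54 and −4.01 at 24 hr, a difference of −1.24 ± 0.22 (adjusted p = 0.0182) that was lost without control replicate 2 (−1.17) or 3 (−1.25) and was −1.20 and −1.08 within slides. Within the slides that hold both groups, Cyp7b1 differed by 1.58 at 4 hr and by 1.20 and 1.19 at 24 hr, and Cyp4f14 by −2.79 and −2.51. No P450 probe was called with normexp, where 3 and 4 reached an unadjusted p below 0.05, or with slide as a fixed block, where 12 and 18 did. Over the whole array normexp called 0.0503% of probes higher at 4 hr and 0 in the other direction or at 24 hr, and the fixed block called 0, so these counts are no result about P450 genes.

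Partners of P450 enzymes were measured beside them. Of 9 electron donors and binding partners, 2 were higher and none lower at 4 hr after KBrO3, against 23.0% higher and 22.5% lower over all probes, and Por, the reductase that passes electrons to microsomal P450s, rose from 4.64 ± 0.05 (SD, n = 3) to 6.34 ± 0.03, a difference of 1.70 (limma adjusted p = 1.43e-10). After co-exposure at 4 hr 2 were higher and none lower, with Por higher by 1.41, against 29.9% and 24.4%. At 24 hr after KBrO3, 2 were lower, Cyb5a by 0.98 and Cyb5r3 by 0.62, and after co-exposure Fdx2 was higher by 0.73 and Cyb5r3 lower by 0.82, while 14.1% and 15.9% of all probes were higher and 19.1% and 23.5% lower after KBrO3 and co-exposure. None of the 9 was called with BPA alone, where 1.39% to 2.83% of all probes were called in a given direction. Of the 9, 1 and 0 reached an unadjusted p below 0.05 at 4 and 24 hr.

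Of 8 heme synthesis genes, 4 were lower and none higher after KBrO3 at 4 hr, and 5 were lower and none higher after co-exposure, against 22.5% and 24.4% lower and 23.0% and 29.9% higher over all probes. Fech, which inserts iron into heme, fell from 3.16 ± 0.13 to 2.43 ± 0.01 after KBrO3 and to 1.43 ± 0.04 after co-exposure at 4 hr, and was lower by 1.73 and 1.36 at 24 hr. A second Fech probe was not called in these comparisons, with differences of −0.21 and −0.39 at 4 hr and 0.020 and −0.035 at 24 hr. Fech was the 1 member called after KBrO3 at 24 hr. After co-exposure at 24 hr 3 others were higher, among them Alas1, the first enzyme of the pathway, by 0.88 and Cpox by 0.59. Over all probes 14.1% were higher and 19.1% lower at 24 hr after KBrO3, and 15.9% and 23.5% after co-exposure. None of the 8 was called with BPA alone, where 1.39% to 2.83% of all probes were called in a given direction. Of the 8, 1 and 3 reached an unadjusted p below 0.05 at 4 and 24 hr.

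Of 15 regulators, 11 were tested in the first set. After KBrO3, 4 were higher and 4 lower at 4 hr and 1 was higher and 4 lower at 24 hr, and after co-exposure 4 and 5 at 4 hr and 1 and 4 at 24 hr. Over all probes the higher and lower shares were 23.0% and 22.5%, 14.1% and 19.1%, 29.9% and 24.4%, and 15.9% and 23.5% in that order. The retinoic acid receptor Rarb, whose gene is known to respond to retinoic acid, was higher at 4 hr by 0.63 with KBrO3, 1.87 with co-exposure and 1.37 with BPA alone, and at 24 hr after KBrO3, where Cyp26b1 was also higher, it differed by 0.10 and was not called. Rara was not above background in either 4 hr group, at least 1.61-fold and at least 2.02-fold lower. The vitamin D receptor Vdr was higher by 0.70 after KBrO3 at 4 hr and lower by 1.11 after KBrO3 at 24 hr, by 2.06 after co-exposure at 24 hr and by 2.01 with BPA alone at 24 hr.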

How the data were processed

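RNA of 24 samples, 3 arrays in each of 8 groups, was measured on Agilent 1-color arrays. Per the file headers, the deposited intensity values are processed spot signals (spatially detrended, background handled by Feature Extraction 9.5.3.1 in the first set and 12.0.0.7 in the second), with the software's flags for spots well above background, coded 0 or 1 as deposited. The deposited series table holds the same signals, with 1080432 of 1080432 values equal within a relative tolerance of 1e-06, so it gave the same results as the scanner files.

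Control spots were left out, spots of a probe were averaged, and log2 signal minus the array's 75th percentile was tested with limma 3.58.1 (lmFit and eBayes, R 4.3.3), each set fitted on its own over all of its groups (27310 and 31806 probes), with Benjamini-Hochberg adjustment over all probes tested. A call needs adjusted p below 0.05 and a fold beyond 1.5. A fold against a group with no array above background is given as at least the bright group's mean over the lowest measured signal of the dim group's arrays. The number of arrays limits the precision. Where a gene has several probes, the brightest on average over the 24 arrays represents it. Genes given by array were taken from the called genes of each of the 8 comparisons, the top 4 in each direction by size of difference, with Cyp2d22 and Cyp2f2, 23 in all, to which members whose probes disagree were added. Members and lists were chosen with earlier results of these data known. Replicates are described as independent experiments. Replicate numbers do not pair the samples, since residuals of same-numbered arrays correlated at −0.029 and 0.0020 on average.

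Alternatives were quantile normalization, scaling to array medians, normexp background correction (offset 50, from mean spot signals in the first set and median ones in the second), probes above background on every array, spot weights, slide as a fixed or random block, a replicate block, fits of 6 arrays, Bonferroni p below 0.01, no fold limit and each array left out. The fit was tested on simulated data. Tables were made with Python 3.11.15 and pandas 2.3.3.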

Additional observations from a re-analysis of the deposited data

Results flagged for a closer look

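The difference between co-exposed and KBrO3-only cells changed between 4 and 24 hr for 12 of the 23 named P450 genes, by limma's test of the interaction (24 hr minus 4 hr, log2 scale, 3 arrays per group). Some of these genes were named for a difference at 1 of the 2 times, so their number is a description, and over all 52 P450 probes tested 9 moved upward and 8 downward, against 11.0% and 16.3% of all probes. It moved upward for Cyp4v3 by 1.49 (adjusted p = 3.67e-08), Cyp7b1 by 1.33 (adjusted p = 1.07e-06), Cyp2a4 by 1.01 (adjusted p = 0.0463), Cyp2j13 by 0.95 (adjusted p = 2.92e-05), Cyp46a1 by 0.95 (adjusted p = 9.43e-05) and Cyp2j6 by 0.81 (adjusted p = 1.16e-05). It moved downward for Cyp2c55 (−2.14, adjusted p = 3.01e-04), Cyp27b1 (−1.92, adjusted p = 0.00427), Cyp2b13 (−1.89, adjusted p = 0.0276), Cyp2c65 (−1.40, adjusted p = 0.0196), Cyp2s1 (−1.06, adjusted p = 1.69e-04) and Cyp17a1 (−0.79, adjusted p = 0.0280). No co-exposed 24 hr array was above background for Cyp2a4, Cyp2b13 or Cyp2s1, and 1 of 3 for Cyp2c65, so these values rest on background there and are no measured sizes. Cyp46a1 differed between the treatments at 4 hr (−0.94) and by 0.0089 at 24 hr, and Cyp2c55 by 1.55 and −0.59.

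Some of these calls were lost when 1 array was left out. Cyp17a1 lost its call without KBrO3 24 hr replicate 1 (−0.54), which shares a slide with the co-exposed 4 hr arrays, and also without KBrO3 4 hr replicate 2 (−0.74) or 3 (−0.76), co-exposed 4 hr replicate 1 (−0.77) or 2 (−0.75) or co-exposed 24 hr replicate 3 (−0.69). Cyp2b13 lost it without KBrO3 4 hr replicate 1 (−1.73), co-exposed 4 hr replicate 1 (−1.85) or co-exposed 24 hr replicate 1 (−1.72), and Cyp2a4 without any 1 of 11 arrays (0.79 to 1.05). With slide as a random block Cyp17a1, Cyp27b1, Cyp2b13, Cyp2c65 and Cyp2a4 were not called, and with normexp only Cyp7b1 (1.25) and Cyp4v3 (1.34) were. The part of the slides was not tested.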

How the results depend on the processing

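Of the values recomputed for the named genes, 2574 kept direction and side of the threshold, 256 lost the call, 4 gained one and 21 changed sign. Counts of called P450 probes moved by over 1.5 times as follows. With normexp they were 9 instead of 18 (KBrO3 4 hr), 41 instead of 24 (KBrO3 24 hr), 2 instead of 13 (co-exposed against KBrO3, 4 hr), 5 instead of 10 (the same at 24 hr) and 0 instead of 6 and 5 for BPA alone at 4 and 24 hr (limma, 3 and 4 probes at an unadjusted p below 0.05), and the interaction and the 24 against 4 hr counts over named genes were 2 instead of 12 and 19 instead of 38. With normexp 5 of the 9 KBrO3 4 hr probes and 22 of the 41 KBrO3 24 hr probes were also called in the analysis reported. With probes above background on every array the counts were 13 (KBrO3 24 hr), 14 instead of 29 (co-exposed 24 hr), 7 (co-exposed against KBrO3, 4 hr) and 24 (24 against 4 hr). Bonferroni adjustment gave 5, 10, 8 instead of 27 and 11 for KBrO3 4 and 24 hr and co-exposed 4 and 24 hr, 2 for co-exposed against KBrO3 at 4 hr, 0 and 0 for BPA alone (17 and 18 at an unadjusted p below 0.05), 2 for the interaction and 17 for 24 against 4 hr. A fixed slide block gave 0 and 0 for BPA alone (12 and 18 unadjusted), a random one 6 for co-exposed against KBrO3 at 4 hr, the fit on 6 arrays 2 for BPA 24 hr, and no fold limit 23 for co-exposed against KBrO3 at 4 hr. Leaving out 1 array gave 15 to 22 (KBrO3 4 hr), 23 to 30 (KBrO3 24 hr), 26 to 30 (co-exposed 4 hr), 25 to 32 (co-exposed 24 hr), 9 to 14 (co-exposed against KBrO3, both times), 3 to 7 (BPA 4 hr; 3 without control replicate 2 or any BPA 4 hr array), 3 to 6 (BPA 24 hr; 3 without control replicate 2 or 3), 9 to 12 (interaction) and 36 to 40 (24 against 4 hr). Signs turned under normexp for Cyp2c65 (−0.50, −1.20, −0.10 and −1.30 for KBrO3 4 hr, KBrO3 24 hr, co-exposed 4 hr and co-exposed 24 hr), Cyp2b13 (−0.91 KBrO3 4 hr, −0.70 co-exposed 4 hr), Cyp2j13 (−0.60 co-exposed 24 hr) and Cyp2d22 from 4 to 24 hr after KBrO3 (−0.016). Cyp2d22 differences near 0 between co-exposed and KBrO3-only cells turned at 4 hr to 0.095 (normexp), 0.097 (spot weights) and 0.053 (random slide block), with −0.27 to 0.049 when 1 array was left out, and at 24 hr to 0.21 (quantile), 0.17 (medians) and 0.17 (normexp), with −0.089 to 0.079. Cyp17a1 from 4 to 24 hr after co-exposure turned to 0.0094 with a fixed slide block. The replicate block moved no count by 1.5 times (17, 24, 28 and 28 for KBrO3 4 and 24 hr and co-exposed 4 and 24 hr, 12 and 10 for co-exposed against KBrO3, 5 and 4 for BPA alone) and took the call from Cyp2c65 (co-exposed 24 hr, adjusted p = 0.0510), Cyp2d22 (BPA 4 hr, adjusted p = 0.0719) and Cyp2a4 (interaction, adjusted p = 0.0629). The cause of these changes was not tested. Dim probes limit the depth, since 36 of the 102 member probes were above background on no array of the first set.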
